A study of Mus musculus with 3 samples.

Results

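The neighbouring genes Rsad2 and Cmpk2 lie together on mouse chromosome 12, and the receptor sites listed around them were followed in macrophages of both genotypes. All peaks of the glucocorticoid receptor (GR) with a midpoint between 27050000 and 27250000 on chromosome 12 (mm9) were taken. That window of 200 kb held 4 of the 1898 peaks of both lists. All 4 were among the 822 peaks listed for GRdim, and 0 were among the 1076 listed for wild type (WT). The window was chosen by the number, spacing and height of its peaks in these same lists, and by their distance to the nearest peak of the other list. The numbers, heights, spacings, overlaps and distances to WT peaks below therefore describe it and are not tested.

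Binding was measured by ChIP-seq (chromatin immunoprecipitation followed by sequencing), in which DNA bound by the receptor is recovered with an antibody and counted along the genome. The cells were macrophages differentiated from the femoral bone marrow of 12-week-old mice crossed to BALB/c for 4 generations or more, either GRdim or their GR+/+ littermates, which are the WT group. In GRdim mice the DNA-binding domain of the receptor has an amino acid exchange in the loop through which 2 receptors pair, and the exchange is present in the whole animal and not only in macrophages. Treatments named in the protocol are dexamethasone (1 µM, overnight), which is a synthetic ligand of GR, and LPS (100 ng/ml, 3 hours), a cell wall component of bacteria, singly or combined. Which of these the ChIP libraries received is not stated in the labels. Each genotype has 1 library, and an input library is described but was not analysed here. The spread between animals is therefore unknown, and a difference between the lists cannot be told apart from a difference between 2 libraries. Macrophage markers could not be checked, since peak lists carry no expression values.

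Rsad2 encodes viperin, a radical-SAM enzyme of the endoplasmic reticulum and lipid droplets that turns CTP into an antiviral chain-terminating nucleotide. Cmpk2 encodes a mitochondrial nucleoside monophosphate kinase that phosphorylates CMP and UMP among other substrates. Both are classical interferon-response genes, which macrophages switch on after LPS through interferon regulatory factors and the type I interferon receptor. GR, the product of Nr3c1, is a transcription factor that enters the nucleus once it binds a glucocorticoid. As a dimer it binds palindromic response elements, and it can also sit at inflammatory genes through half-sites or through other factors such as AP-1 and NF-κB. In the gene order of RefSeq (assembly GRCm38.p6) Rsad2 and Cmpk2 follow each other with no gene between them. They lie on opposite strands and are transcribed away from each other. The next protein-coding genes are Rnf144a beside Rsad2, with 2 non-coding genes between, and Sox11 beyond Cmpk2, with 11 other genes between. The peak coordinates are of mm9 and the gene table is of a later assembly, so the distance of a peak to either gene is not given. That the window holds these genes rests on the choice of the window and was not checked here.

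The promoters of both genes are shown as sequence context, which the choice of the window did not use. The 250 bases before each RefSeq start (GRCm38.p6; Rsad2 on the minus and Cmpk2 on the plus strand) are written 5′ to 3′ along the gene. Capitals mark an AP-1 match (TGANTCA) and matches to the interferon-stimulated response element (GAAA and GAAAC with 2 bases between) with 1 mismatch allowed, on either strand.
Rsad2: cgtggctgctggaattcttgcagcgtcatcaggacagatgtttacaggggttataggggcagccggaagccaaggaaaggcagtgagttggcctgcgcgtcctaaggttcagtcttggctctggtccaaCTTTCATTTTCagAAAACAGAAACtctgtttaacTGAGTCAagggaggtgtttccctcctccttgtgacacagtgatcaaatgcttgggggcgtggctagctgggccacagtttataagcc
Cmpk2: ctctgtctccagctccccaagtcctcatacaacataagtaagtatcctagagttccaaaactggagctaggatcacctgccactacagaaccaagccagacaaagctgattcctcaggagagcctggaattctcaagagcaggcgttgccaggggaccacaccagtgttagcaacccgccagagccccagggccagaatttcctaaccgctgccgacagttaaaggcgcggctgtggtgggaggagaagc

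The Rsad2 promoter held 1 AP-1 match, TGAGTCA, at bases -87 to -81, counted so that -1 is the last base before the start. That motif occurs in 7.81% of the 32851 promoters of the table, searched over the same 300 bases (250 before and 50 after the start). No exact interferon-stimulated response element was found in either promoter (0.819% of all promoters hold one). With 1 mismatch allowed, Rsad2 held 2, at bases -121 to -111 on the opposite strand and at -108 to -98, side by side and just upstream of the AP-1 match. At least 1 such looser match occurs in 11.4% of promoters, so the presence of 1 is not rare. The share of promoters with 2 was not counted. Cmpk2 held no exact match to any motif searched, and no interferon-stimulated response element with 1 mismatch allowed either, like most promoters. Neither promoter held the full glucocorticoid response element (AGAACA and TGTTCT with 3 bases between), its relaxed form (GNACA and TGTNC with 3 bases between) or the κB motif (GGGA and TTTCC with 1 base between), also with 1 mismatch allowed. Exact matches to these stand in 0.00913%, 0.475% and 0.411% of all promoters, and matches with 1 mismatch in 0.164%, 9.43% and 7.80%, so most promoters lack them too. The motifs were searched on both strands, and every full element also matches the relaxed form. A match describes the letters only, and the sequences under the 4 peaks, which need the mm9 genome, were not analysed here.

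The 4 GRdim sites form 2 close pairs, a taller one at lower and a lower one at higher coordinates. Heights are the authors' own values, taken here as RPM, the reads at a peak per 1000000 reads of its library. No header states this unit, and how the peaks were called is not given. Each listed peak is 200 bp wide. Site 1, chr12:27125793-27125992, stood at 2.44 RPM. Site 2, chr12:27127153-27127352, was the tallest of the locus at 2.57 RPM. Site 3, chr12:27161753-27161952, reached 1.65 RPM. Site 4, chr12:27162424-27162623, was the lowest at 1.52 RPM. For WT no height is listed at any of these positions. The order of the heights thus follows the pairs, with both members of the first pair above both members of the second.

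**Figure D1:**
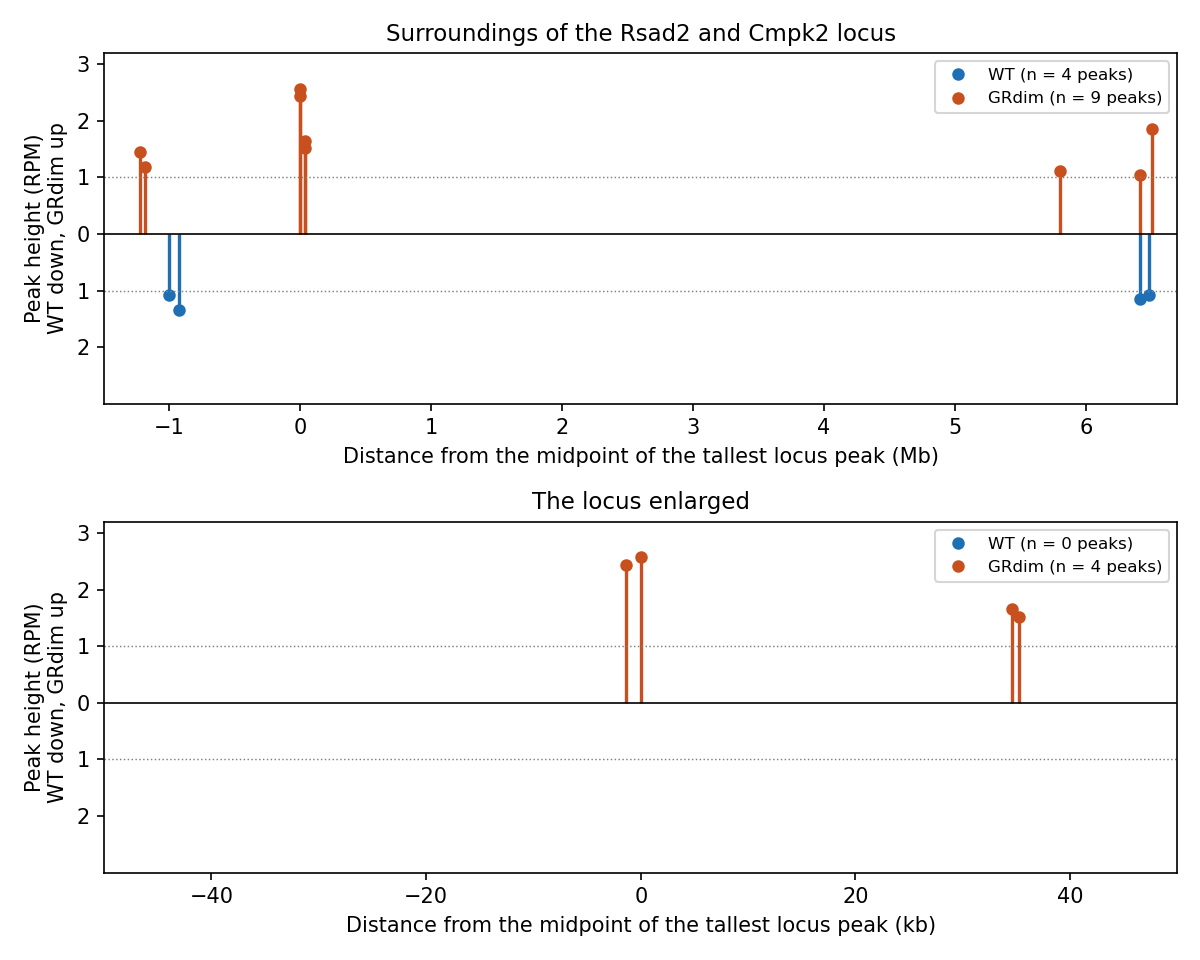
Peak heights (RPM, y axis) of both libraries against the distance from the midpoint of the tallest site of the locus, in Mb (top) and kb (bottom). GRdim peaks point up and WT peaks down, each line is 1 listed peak, and the dotted lines mark 1 RPM, below which nothing is listed. The 4 GRdim sites of 1.52 to 2.57 RPM have no WT peak beside them, and the nearest WT peak lies 924 kb away.

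Heights of a list rise in even steps, which were read as whole reads of 0.0659 RPM each in GRdim and 0.0676 RPM in WT. This is an inference, since no file states read numbers. On that reading the 4 sites held 37, 39, 25 and 23 reads, 124 in all. Their 95% exact Poisson intervals, which cover counting error only, were 26.1 to 51.0, 27.7 to 53.3, 16.2 to 36.9 and 14.6 to 34.5 reads. The first pair together held 76 reads (59.9 to 95.1) and the second 48 (35.4 to 63.6), a ratio of summed heights of 1.58. These intervals overlap at their ends, and the difference between the pairs was not tested. Within a pair the sites differed by 2 reads in each case (0.13 RPM), well inside the interval of either site.

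Within their own list the sites stood in the upper part. Site 2 ranked 31 and site 1 ranked 40 of the 822 GRdim peaks by height, above 95.9% and 94.9% of the list. Sites 3 and 4 ranked 175 and 213 (peaks of equal height share a rank), above 76.2% and 69.3%. The median of the GRdim list was 1.25 RPM and that of the locus 2.045 RPM. All 4 sites reached 1.5 RPM, as 30.7% of all GRdim peaks did, and 2 of the 4 reached 2 RPM, against 10.9% of the list. On chromosome 12, where 30 GRdim peaks had a median of 1.35 RPM and a maximum of 2.70 RPM, the sites ranked 4, 2, 8 and 11 from left to right. They made up 13.3% of the GRdim peaks of that chromosome. WT listed 44 peaks on chromosome 12, with a median of 1.15 RPM and a maximum of 4.33 RPM.

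None of the 4 sites overlapped a WT peak, which is also true of 70.6% of all GRdim peaks. The distance from site midpoint to the nearest WT midpoint was 924, 925, 960 and 961 kb from site 1 to site 4. It was the same WT peak each time, at chr12:26201748-26201947 with 1.35 RPM (20 reads). Over the whole GRdim list the nearest WT peak lay 107 kb away in the median (quartiles 0.0635 and 739 kb). A distance over 900 kb was found for 22.4% of GRdim peaks and one over 500 kb for 31.3%, so a wide distance alone is common. The median height of those 184 distant peaks was 1.19 RPM. Among them the 4 sites of the locus ranked 7, 4, 25 and 29 by height. The 3 taller ones were on chromosome 9 (3.36 RPM), chromosome 2 (2.83 RPM) and chromosome 18 (2.70 RPM), named after their values were seen. A height of 2 RPM or more together with such a distance was found for 15 GRdim peaks, 1.82% of the list, of which 2 are in this locus.

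**Figure D2:**
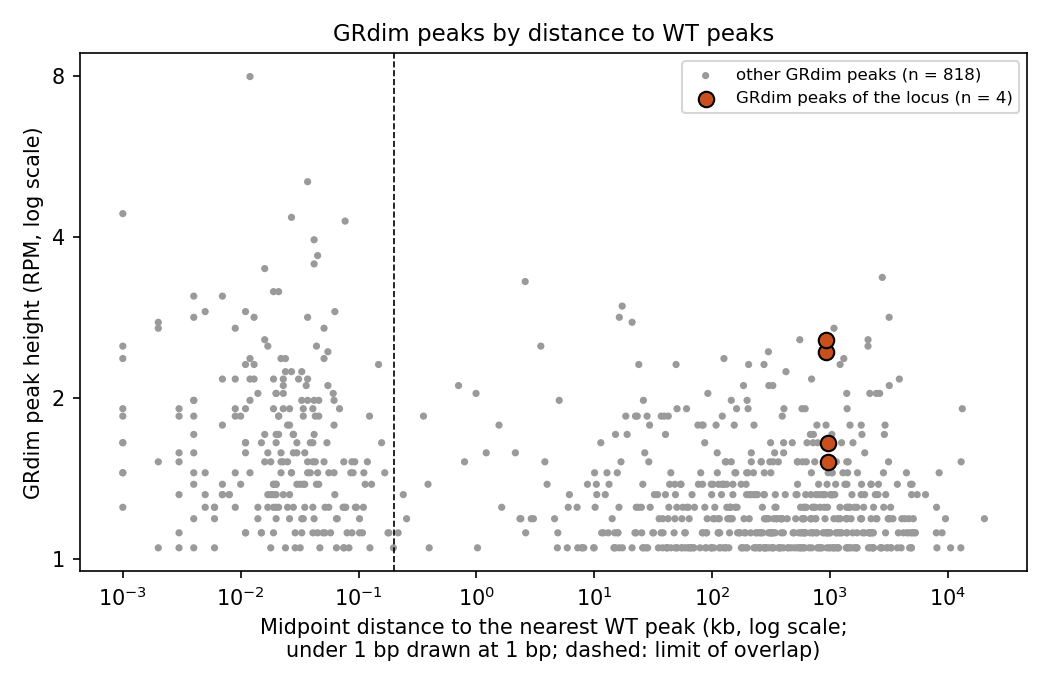
Height of each of the 822 GRdim peaks (RPM, log scale) against the distance from its midpoint to the nearest WT midpoint (kb, log scale), with peaks left of the dashed line overlapping a WT peak. The 4 sites of the locus (large points) lie between 924 and 961 kb, above most other peaks at such distances.

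The WT list is empty for a long stretch around the locus. On the lower side the nearest WT peaks were at chr12:26201748-26201947 (1.35 RPM) and chr12:26123386-26123585 (1.08 RPM, 16 reads). On the upper side the next WT peak came 6377 kb after site 4, at chr12:33539901-33540100 (1.15 RPM, 17 reads). It overlapped a GRdim peak of 1.05 RPM whose midpoint was 65 bp away. The interval between the flanking WT midpoints spanned 7338 kb, the 87th widest of the 1055 intervals between neighbouring WT peaks, whose median was 755 kb. GRdim peaks in that interval numbered 6: the 4 sites, a peak of 1.12 RPM at chr12:32928391-32928590, and the one that overlaps the upper WT peak. Of the 1055 intervals, 28 held 4 or more GRdim peaks. The 87 intervals as wide or wider, this one included, held 2 in the median and at most 7. The nearest GRdim peak below the locus, at chr12:25936608-25936807 (1.19 RPM), was 1189 kb from site 1. No other GRdim peak was therefore listed within 1 Mb of the sites, and both libraries were sparse around them.

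What the empty WT list allows depends on the floor. Nothing under 1 RPM is listed, and the lowest listed WT height was 1.01 RPM, or 15 reads. If WT signal at these positions went unlisted only because it was lower than that, the GRdim heights were at least 2.42-, 2.54-, 1.63- and 1.505-fold higher from site 1 to site 4. The files do not tell whether a position failed another filter, so these bounds hold under that condition only. They also leave out counting error. In RPM, the lower ends of the GRdim intervals were 1.72, 1.83 and 1.07 for sites 1 to 3, above the WT floor, and 0.961 for site 4, below it. The floor is a fixed cut-off, and an unlisted WT count would carry counting error of its own, which is not included. A lower end above the floor is therefore no test of a difference between the libraries. Weaker WT binding at any of the 4 positions was not detectable from these lists. On the reading of whole reads, the WT library would hold about 14800000 reads and the GRdim library 15200000. The step of 1 read was sought between 0.06 and 0.075 RPM in both lists, which by itself keeps the implied depths close, so their likeness is no finding.

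The spacing within the pairs was short. The midpoints of sites 1 and 2 were 1360 bp apart and those of sites 3 and 4 were 671 bp apart, while 34.6 kb separated site 2 from site 3. The 4 midpoints spanned 36.6 kb. A neighbour of the same list within 2 kb was found for all 4 sites, against 3.41% of all GRdim peaks (28 peaks) and 4.37% of all WT peaks; within 5 kb it was found for 5.96% of GRdim peaks. The GRdim list held 14 such pairs of adjacent peaks, with a median spacing of 1373 bp, and the WT list held 24, with a median of 1057 bp. Of the GRdim pairs, 2 were closer than the second pair of the locus and 6 were closer than the first.

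Both pairs of the locus were nearly level in height. The taller site stood at 1.05 times the lower one in the first pair and at 1.09 times in the second. Over the 14 GRdim pairs the median of this ratio was 1.06 and the highest 1.496, and over the 24 WT pairs it was 1.38 and 3.43. The locus pairs thus sit in the middle of the GRdim pairs, and 1 WT pair was more even than the second pair of the locus. Whether the lists differ in this ratio was not tested.

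**Figure D3:**
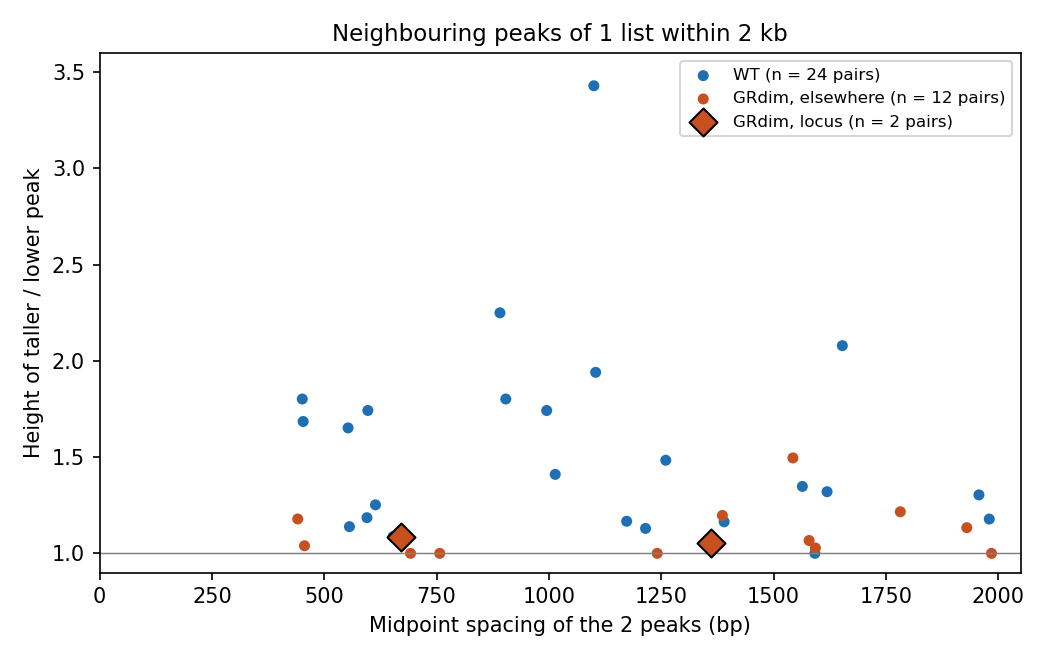
Height ratio of the taller to the lower peak (y axis) against midpoint spacing (bp, x axis) for every pair of adjacent peaks of 1 list within 2 kb, 14 in GRdim and 24 in WT. The locus pairs (diamonds, at 671 and 1360 bp) lie at ratios of 1.09 and 1.05, and the WT pairs reach 3.43.

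A distance over 900 kb to any WT peak together with an own neighbour within 2 kb was found for 8 GRdim peaks, 0.973% of the list. They are the 4 sites of the locus and 2 further pairs, named after their values were seen. The pair on chromosome 14, at chr14:103456646-103456845 and chr14:103458239-103458438, resembled the first pair of the locus, with 2.57 and 2.50 RPM (39 and 38 reads), a spacing of 1.593 kb and its nearest WT peak 2106 kb away. The pair on chromosome 19, at chr19:34652162-34652361 and chr19:34652603-34652802, was lower, with 1.32 and 1.12 RPM (20 and 17 reads) at a spacing of 0.441 kb, and its nearest WT peak lay 1972 kb away. The limits of 900 kb and 2 kb were set with the locus in view, so its own membership is no result. Close pairs without a peak of the other list also occurred in WT. No peak of the other list lay within 2 kb of either member for 9 of the 14 GRdim pairs and 17 of the 24 WT pairs. Of those, 2 GRdim pairs, the first pair of the locus included, and 3 WT pairs were at least as tall in sum as that first pair.

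The locus was set beside the other dense stretches of the GRdim list. At least 3 further GRdim peaks within 100 kb were found for all 4 sites and for 3.89% of GRdim peaks, with 5.48% for the same measure in the WT list. Non-overlapping windows of 200 kb that begin at a GRdim peak held 4 or more of them in 8 places. The locus window was the one among the 8 without a WT peak, and the other 7 held between 1 and 5. Distance to WT peaks was part of the choice of the locus, so the absence of a WT peak there is no result. The fullest, with 7 GRdim peaks between 83337588 and 83479406 on chromosome 11, had heights of 1.05 to 3.30 RPM (median 1.45) and 2 WT peaks of 1.35 and 2.03 RPM. None of those 7 overlapped a WT peak either, but their distances to the nearest one ran from 2.60 to 125 kb, and their closest neighbours were 3.11 kb apart. The next, with 6 GRdim peaks between 95950674 and 96119788 on chromosome 16, had heights of 1.05 to 2.83 RPM (median 1.98). It held 5 WT peaks of 1.01 to 2.84 RPM, and 5 of its 6 GRdim peaks overlapped one. The locus thus had fewer GRdim peaks than either window, a shorter span (36.6 kb against 142 and 169 kb) and a summed GRdim height of 8.18 RPM against 12.98 and 11.07. These windows were picked for their counts, and no test of their differences was made.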

How the data were processed

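Each ChIP library has 1 deposited peak list; the authors aligned reads with Bowtie to mm9, per the submitters' processing notes. How peaks were called and the input used is not given in the sources used here. The deposited heights are taken as RPM because the peak names carry the mark 1rpm and no height is below 1; no header states the unit. Start positions were converted to 1-based. To infer reads, a step between 0.06 and 0.075 RPM was sought for each list whose multiples best match its heights; 1075 of 1076 WT and 822 of 822 GRdim heights were whole within 0.1 read. Steps outside that range were not tried, so read numbers are an inference and no count test was run. On 10 simulated lists, built from whole reads with steps inside that range, the fit returned the right reads for 100% of peaks. That checks the fit alone and cannot show that the deposited heights are whole reads. Overlap means at least 1 shared base. Intervals are 95% exact Poisson. No p-value was computed: each genotype has 1 library and the members were chosen from these lists. The members, motifs, limits and lists were chosen with earlier results of these data known. The named peaks are all those in the window, the nearest on either side, and the 2 other windows of 200 kb with the most GRdim peaks; others are marked where they appear. Promoter sequences come from RefSeq (GRCm38.p6), matched by symbol for both genes. A motif check over 30 interferon-response genes was void, since 22 (73.3%) had a promoter in the table, under the required 80%. Software: scipy 1.17.1, numpy 2.4.6, matplotlib 3.10.9, Python 3.11.15.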

Additional observations from a re-analysis of the deposited data

How the results depend on the processing

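The locus held 4 GRdim and 0 WT peaks in the middle 100 kb of the window, in windows of 500 kb and 1 Mb, with heights of at least 1.5 RPM and with lists of equal length. Merging peaks within 1 kb left 3 GRdim peaks, and a height of at least 2 RPM left 2, the first pair. WT stayed at 0 under both. Counted from WT peaks of at least 1.5 RPM alone, the nearest one was 14123 kb away and not 924 kb, because the peaks on both sides of the locus are lower than that. No locus peak met a WT peak under any overlap rule tried, up to midpoints within 20 kb. With the nearest WT peak 924 kb away, none of these rules could give another result. Over all GRdim peaks the median distance was 107 kb, so most of them have no WT midpoint within 20 kb either. The median height was 2.44 RPM after merging. Of 21 alternative values on peaks 19 were counted as the same, under limits wide enough to admit clear changes. They include the drop from 4 to 3 peaks and the rise of the median from 2.045 to 2.44 RPM, both after merging. Values of 0 and wider windows in an empty stretch could hardly move. With 1 mismatch allowed, the AP-1 matches went from 1 to 2 in the Rsad2 promoter and from 0 to 1 in that of Cmpk2; 69.4% of all promoters hold such a looser match. No paired analysis was possible because each genotype has 1 library, and for the same reason no library could be left out. Distances to genes and sequences under the peaks were not run, since no mm9 genome or annotation was used here. If the steps of the heights are whole reads, an inference that no file states, the heights rest on 23 to 39 reads a site.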
